A study of Mus musculus with 12 samples.

Results

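Hyaluronan is a long sugar chain of the extracellular matrix, and 9 mouse genes that make it, break it down or bind it were followed through scars of the back skin: the synthases Has1, Has2 and Has3, the breakdown genes Cemip, Hyal1 and Hyal2, and the binding proteins Cd44, Tnfaip6 and Vcan. They were chosen by gene symbol, as 9 of the 35976 genes listed in the count files, and all 9 were among the 18853 genes that passed the filter on low counts. RNA was taken from scars of 3 male mice in each of 4 groups, aged 8 to 12 weeks, and sequenced as 1 library per mouse. Tem1 WT/WT mice carry the normal gene, and Tem1 lacZ/lacZ mice lack Tem1 in every cell because a lacZ reporter replaces its single exon, in a line crossed back to C57BL/6J for 10 generations. Every mouse received a 1.5-cm split wound, and 6 days later a plastic device was placed over it, which was lengthened by 1 mm a day to 8 mm in the traction groups and left as it was in the sham groups. The sham groups therefore share the wound and the device with the traction groups, the comparison asks what stretch adds, and no unwounded skin was compared here. Because the deletion is in all cells, these scars do not show in which cell type the loss of Tem1 acts.

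Hyaluronan is spun out through the cell membrane by the synthases, from sugar nucleotides of the cytoplasm. It is cut at the cell surface and in lysosomes by hyaluronidases, and outside the cell in a way that needs the CEMIP protein. In skin it holds water, forms part of the early matrix of a wound, and is held in place or sensed by proteins such as the receptor CD44, the heavy-chain transferase TSG-6 (the product of Tnfaip6) and the proteoglycan versican (Vcan).

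Library totals ranged from 41536788 to 64644293 counts. Cd248, the symbol of Tem1 in the files, had 3883 to 16413 counts in the Tem1 WT/WT libraries and 0 to 13 in the Tem1 lacZ/lacZ libraries. Levels are given as CPM, counts scaled to a common library total, after TMM normalization, which rescales each library by its bulk of unchanged genes. Replicate 1 of the Tem1 WT/WT traction group stood apart: 6 neutrophil markers (S100a8, S100a9, Csf3r, Cxcr2, Mmp8 and Mpo) summed to 6739 CPM there and to between 61.1 and 606 CPM in the other 11 libraries, so the results for Cemip, Has3, Cd44 and Tlr2 are given with and without it. None of the markers listed for fibroblasts, neutrophils, macrophages, keratinocytes or other cells of skin had 0 counts in any library. With traction in Tem1 WT/WT mice, 4 of 6 neutrophil, 2 of 7 fibroblast, 3 of 5 endothelial and 1 of 6 macrophage markers rose, 1 of 6 hair follicle markers fell, and none of the 6 interfollicular keratinocyte, 6 skeletal muscle, 5 adipocyte, 4 T cell or 4 mast cell markers passed the test. In Tem1 lacZ/lacZ mice none of these markers passed it. Of all genes, 9.15% passed it in Tem1 WT/WT and 0% in Tem1 lacZ/lacZ mice. All 6 hair follicle markers were lower in every traction than in every sham library of Tem1 WT/WT mice, beside 3388 of 18853 genes. Their median log2 fold change there was -1.79, and it was -2.60 for skeletal muscle (1 of 6 lower without overlap) and -1.48 for adipocyte markers (1 of 5). In bulk tissue, fewer cells of a type and less RNA per cell cannot be told apart.

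The 9 genes lie on 7 chromosomes of GRCm38, and Hyal1 and Hyal2 are neighbours on chromosome 9, at chr9:107576950-107581699 and chr9:107567873-107572778, both on the plus strand. Promoters are shown for Cemip, the only one of the 9 that edgeR's test called, and for Has1 and Tnfaip6, whose levels moved together. Each runs from 250 bases before to 50 bases after a transcription start in RefSeq (GRCm38.p6), in lower case, with the letters that matched a searched motif in capitals. For Cemip and Has1 that start lies inside the RefSeq bounds of the gene, which reach 84086693 and 17855589. Positions refer to the start used. In Cemip (chr7:84086456-84086755, minus strand) the capitals mark a TATA match, 29 to 24 bases before the start. In Tnfaip6 (chr2:52037863-52038162, plus strand) they mark an AP-1 match 142 to 136 bases before the start and a TEAD match on the other strand 8 to 3 bases before it, and in Has1 (chr17:17855139-17855438, minus strand) a cyclic AMP response element (CRE) match 83 to 76 bases before it.
Cemip: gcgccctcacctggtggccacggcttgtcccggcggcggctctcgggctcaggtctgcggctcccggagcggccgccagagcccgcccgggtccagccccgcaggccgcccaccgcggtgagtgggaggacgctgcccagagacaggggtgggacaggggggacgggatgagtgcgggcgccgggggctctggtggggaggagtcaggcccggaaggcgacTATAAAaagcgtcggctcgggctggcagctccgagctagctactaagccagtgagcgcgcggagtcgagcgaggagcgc
Tnfaip6: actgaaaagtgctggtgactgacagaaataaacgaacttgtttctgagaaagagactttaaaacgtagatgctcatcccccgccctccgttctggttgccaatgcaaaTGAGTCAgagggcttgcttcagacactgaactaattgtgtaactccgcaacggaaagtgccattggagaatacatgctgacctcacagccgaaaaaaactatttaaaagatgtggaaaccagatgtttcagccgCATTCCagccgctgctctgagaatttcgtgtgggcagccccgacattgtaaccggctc
Has1: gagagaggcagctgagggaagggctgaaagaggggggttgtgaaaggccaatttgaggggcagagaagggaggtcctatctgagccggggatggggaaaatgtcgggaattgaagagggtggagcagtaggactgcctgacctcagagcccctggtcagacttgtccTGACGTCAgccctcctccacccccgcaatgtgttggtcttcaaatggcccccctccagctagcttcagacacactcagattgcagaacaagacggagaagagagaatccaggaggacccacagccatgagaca

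The AP-1 letters searched were TGANTCA, on both strands like all 4 motifs. Those of the CRE were TGACGTCA. The TATA motif was searched as TATAAA. For TEAD the letters were GGAATG. None of these contains another, and the choice was made after these sequences had been seen. Of 32851 promoters of this length, 7.81% held the AP-1 letters, 1.79% the CRE letters, 13.6% the TATA letters and 14.7% the TEAD letters. The Hyal2 window held a TEAD match, and the Hyal1, Cd44 and Vcan windows held none of the 4. These matches describe letters and not binding.

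Of the synthases, Has2 is the main enzyme of embryonic and dermal hyaluronan, Has1 is typically the least active, and Has3 is prominent in epidermis. None of the 3 was called by edgeR in any comparison, while DESeq2 called Has1 and Has2 between genotypes under traction, along with 12.4% of all genes tested. Has1 and Has2 were lower in every traction library of Tem1 lacZ/lacZ mice than in every traction library of Tem1 WT/WT mice. Has2 (chr15:56665627-56694546, minus strand) had 8.77, 11.1 and 17.4 CPM in the Tem1 WT/WT sham libraries and 15.3, 20.7 and 19.9 CPM with traction. Without Tem1 it had 13.8, 9.30 and 15.6 CPM in sham and 9.36, 4.86 and 6.71 CPM with traction. The traction libraries of Tem1 WT/WT mice were thus mostly the highest and those of Tem1 lacZ/lacZ mice mostly the lowest, while both sham groups lay between and overlapped both. The log2 fold change with traction was 0.59 (SE 0.31, adjusted p = 0.217) in Tem1 WT/WT and -0.89 (SE 0.31, adjusted p = 0.598) in Tem1 lacZ/lacZ mice.

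Has1 (chr17:17833691-17855589, minus strand) was the scarcer of the pair. Its level was 2.95, 2.81 and 8.57 CPM in Tem1 WT/WT sham scars and 2.97, 12.3 and 10.5 CPM with traction. The Tem1 lacZ/lacZ scars had 2.74, 2.06 and 5.69 CPM in sham and 1.95, 0.534 and 1.28 CPM with traction, the last of these groups resting on 28 to 79 counts per library. All 3 traction libraries of Tem1 lacZ/lacZ mice lay below all 3 of their sham libraries. With traction the log2 fold change was 0.85 (SE 0.65, adjusted p = 0.400) in Tem1 WT/WT and -1.49 (SE 0.68, adjusted p = 0.614) in Tem1 lacZ/lacZ mice.

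Has3 (chr8:106870242-106882902, plus strand) behaved otherwise, with large scatter within both traction groups. It had 4.62, 12.4 and 16.6 CPM in Tem1 WT/WT sham scars and 42.6, 6.32 and 7.07 CPM with traction. The corresponding Tem1 lacZ/lacZ values were 11.6, 10.5 and 12.1 CPM in sham and 26.2, 11.4 and 5.07 CPM with traction. In both traction groups replicate 1 was the highest, and all 4 groups overlapped. The log2 fold change with traction in Tem1 WT/WT mice was 0.73 (SE 0.77, adjusted p = 0.546), and without replicate 1 of the traction group it was -0.76 (adjusted p = 0.438). The 6 interfollicular keratinocyte markers summed to 40654 CPM in replicate 1 of the Tem1 lacZ/lacZ traction group and to between 9221 and 19965 CPM in the other 11 libraries, and their part in the Has3 values was not tested. On the opposite strand Has2 shares 182 exon bases (4.30%) with Has2os and Has3 shares 352 (5.52%) with Chtf8, and the strand setting of the counting is not given in the sources used here.

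**Figure D1:**
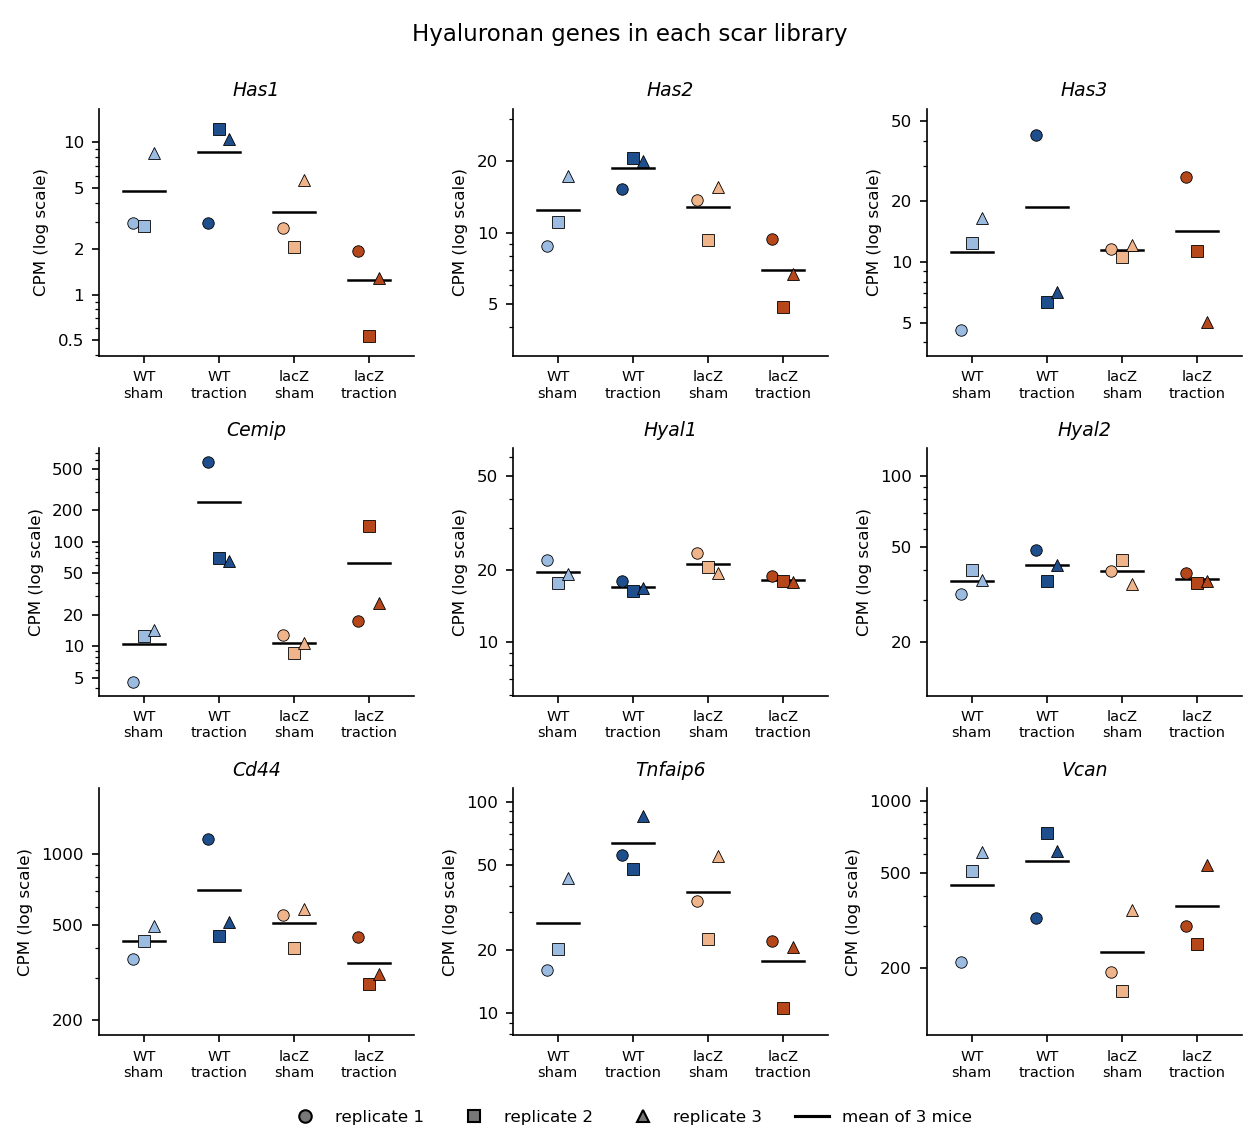
Level of each of the 9 genes in each scar library, in CPM on a log axis whose range differs between panels, for sham and traction scars of Tem1 WT/WT (WT, blue) and Tem1 lacZ/lacZ mice (lacZ, orange). Symbols mark the replicate number and lines the arithmetic mean of 3 mice. Cemip is higher in all 6 traction libraries than in any of the 6 sham libraries, and replicate 1 of the WT traction group is the highest of all libraries for Cemip, Has3, Hyal2 and Cd44.

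Levels of different genes were compared per kb of exon. On that scale Has2 made up the largest mean share of the 3 synthases in Tem1 WT/WT sham (52.8% ± 6.46, SD, n = 3), Tem1 WT/WT traction (49.2% ± 14.1) and Tem1 lacZ/lacZ sham scars (54.0% ± 3.16). With traction in Tem1 lacZ/lacZ mice the mean shares were 43.3% ± 14.2 for Has2, 49.7% ± 17.3 for Has3 and 6.97% ± 3.43 for Has1. Has1 took 31.7% and 28.6% of the synthases in replicates 2 and 3 of the Tem1 WT/WT traction group and 3.88% to 10.7% in the Tem1 lacZ/lacZ traction libraries. In replicate 1 of the Tem1 WT/WT traction group Has3 took 61.0% and Has1 6.02%. Per kb of coding sequence instead of exon, the mean shares of Has2 and Has3 were 35.3% and 58.9% in Tem1 lacZ/lacZ traction scars, and Has2 kept the larger mean share in the other 3 groups. These shares are descriptions and were not tested.

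**Figure D2:**
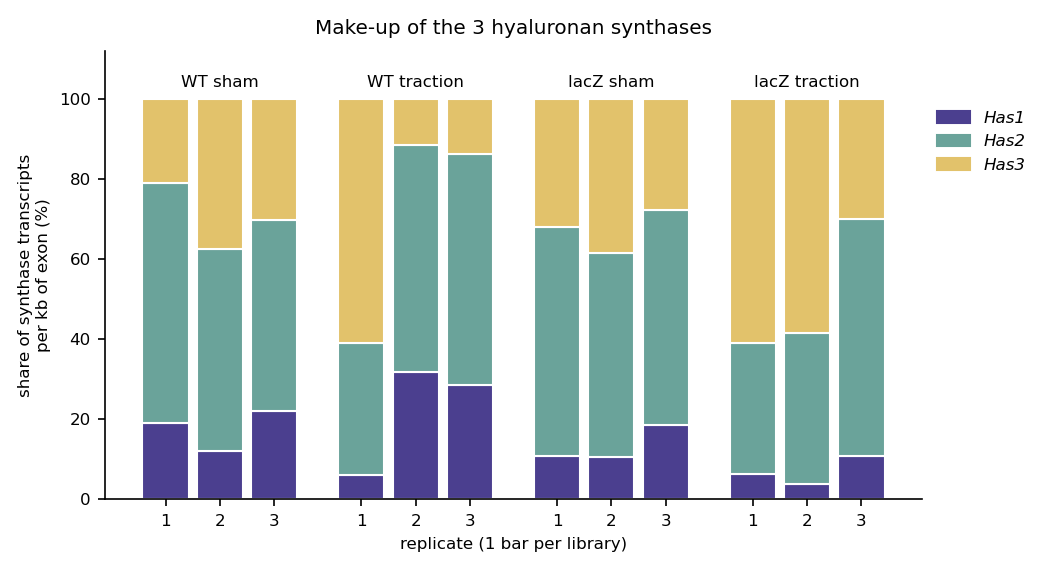
Share of each synthase among Has1, Has2 and Has3, from CPM per kb of exon in percent, with 1 stacked bar per library and the replicate number below it. Has2 takes 47.7% to 60.0% in the 6 sham libraries, while Has3 takes 61.0% in replicate 1 of the WT traction group and 58.5% to 60.9% in replicates 1 and 2 of the lacZ traction group.

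Among the breakdown genes Cemip was higher with traction, by the largest fold of the 9 genes, and Hyal1 and Hyal2 varied little. Cemip (chr7:83932857-84086693, minus strand) encodes a secreted and cell-associated protein needed for hyaluronan depolymerization in skin fibroblasts. It had 4.58, 12.6 and 14.5 CPM in Tem1 WT/WT sham scars and 577, 69.8 and 65.6 CPM with traction. Scars of Tem1 lacZ/lacZ mice had 12.7, 8.57 and 10.8 CPM in sham and 17.4, 143 and 26.1 CPM with traction. No sham library of either genotype reached any traction library, although each traction group held 1 library far above its other two.

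In Tem1 WT/WT mice Cemip rose with traction, with a log2 fold change of 4.49 (SE 1.06, 95% interval 2.14 to 6.84, adjusted p = 0.0354). It was the only one of the 9 genes called at an adjusted p under 0.05 in edgeR's quasi-likelihood test, where 9.15% of all genes tested were called and 5.61% were called higher. In Tem1 lacZ/lacZ mice its log2 fold change was 2.54 (SE 0.98, 95% interval 0.38 to 4.69, adjusted p = 0.598), and the difference between the genotypes was -1.95 (SE 1.32, adjusted p = 0.640). Leaving out replicate 2 of the Tem1 lacZ/lacZ traction group, its high library, gave 1.03 in Tem1 lacZ/lacZ mice and -3.47 for the difference, and leaving out replicate 1 of the Tem1 WT/WT traction group gave a difference of -0.084. Averaged over the genotypes the log2 fold change was 3.51 (SE 0.72, adjusted p = 0.0255), in a comparison that called 9.73% of all genes. The call in Tem1 WT/WT mice was lost without replicate 1, 2 or 3 of the sham group (adjusted p = 0.133, 0.101 and 0.0646), without replicate 1 of the traction group (log2 fold change 2.66, adjusted p = 0.0717) and without replicate 3 of the Tem1 lacZ/lacZ sham group (adjusted p = 0.0564). It was lost as well with a replicate block (adjusted p = 0.0601) and with all genes of at least 1 count (0.0710). Limma-voom with sample weights (log2 fold change 3.17, adjusted p = 0.0636) and a fit of only the 6 libraries compared (0.0863) lost it too. The averaged call was kept without replicate 1 of the Tem1 WT/WT traction group (2.62, adjusted p = 0.0261) and lost without replicate 1 or 2 of the Tem1 WT/WT sham group, 2 or 3 of the Tem1 lacZ/lacZ sham group, or 2 or 3 of the Tem1 lacZ/lacZ traction group (adjusted p from 0.0520 to 0.0754). Where leaving out 1 library lost the call in Tem1 WT/WT mice, 0%, 0%, 4.22%, 1.86% and 0.873% of all genes were called, in the order given. Where it lost the averaged call, 0% to 1.84% of all genes were called.

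Hyal1 (chr9:107576950-107581699), a lysosomal hyaluronidase, was the steadiest of the 9. Its level ranged from 17.6 to 22.1 CPM in Tem1 WT/WT sham, 16.3 to 18.0 CPM in Tem1 WT/WT traction, 19.4 to 23.7 CPM in Tem1 lacZ/lacZ sham and 17.9 to 19.0 CPM in Tem1 lacZ/lacZ traction scars. Its log2 fold change with traction was -0.20 (SE 0.13, adjusted p = 0.323) and -0.22 (SE 0.13, adjusted p = 0.664) in the 2 genotypes. Hyal1 shares 1920 exon bases (50.8% of its exon sequence) with Naa80 and 159 with Hyal3 on the same strand, and how reads on shared bases were counted is not given in the sources used here, so its level is uncertain. Hyal2 (chr9:107567873-107572778), which is anchored at the cell surface, ranged from 31.8 to 40.1 CPM, 36.0 to 48.9 CPM, 35.04 to 44.2 CPM and 35.6 to 39.1 CPM in the same order of groups. Its log2 fold change with traction was 0.23 (SE 0.15, adjusted p = 0.320) in Tem1 WT/WT and -0.10 (SE 0.15, adjusted p = 0.862) in Tem1 lacZ/lacZ mice. The 95% intervals of these 4 changes reached from -0.51 at the lowest to 0.56 at the highest on the log2 scale.

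Of the binding proteins, Tnfaip6 and Cd44 lay, like Has2, above the sham mean in every traction library of Tem1 WT/WT mice and below it in every traction library of Tem1 lacZ/lacZ mice. How many of all genes lie this way was not counted. Tnfaip6 (chr2:52038113-52056681, plus strand) encodes TSG-6, which moves heavy chains from inter-alpha-inhibitor onto hyaluronan. Its level was 16.1, 20.1 and 43.8 CPM in Tem1 WT/WT sham scars and 56.2, 48.2 and 86.0 CPM with traction. Among Tem1 lacZ/lacZ scars it was 33.9, 22.5 and 55.4 CPM in sham and 21.9, 10.6 and 20.6 CPM with traction. The groups did not overlap within either genotype, and they lay in opposite order. The log2 fold change with traction was 1.25 (SE 0.45, adjusted p = 0.0882) in Tem1 WT/WT and -1.07 (SE 0.45, adjusted p = 0.599) in Tem1 lacZ/lacZ mice. With DESeq2 the first of these was called (adjusted p = 0.0329), in a fit that called 21.5% of all genes tested.

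Cd44 (chr2:102811141-102901669, minus strand), the main hyaluronan receptor, had the highest level of the 9 per kb of exon in all 4 groups. It had 363, 430.2 and 496 CPM in Tem1 WT/WT sham scars and 1150.45, 451 and 518 CPM with traction. The Tem1 lacZ/lacZ values were 552, 402 and 585 CPM in sham and 447, 284 and 312 CPM with traction. Replicate 1 of the Tem1 WT/WT traction group stood alone, and the other 2 of that group lay within or just above the sham range. The log2 fold change with traction was 0.72 (SE 0.34, adjusted p = 0.172) in Tem1 WT/WT and -0.56 (SE 0.34, adjusted p = 0.657) in Tem1 lacZ/lacZ mice. Without replicate 1 of its traction group the Tem1 WT/WT value was 0.15 (adjusted p = 0.711). Neutrophils and macrophages also express Cd44, and the part of their markers in its level was not tested.

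Vcan (chr13:89655309-89743027, minus strand) encodes versican, a large proteoglycan that binds hyaluronan at one end. It had 212, 511 and 611 CPM in Tem1 WT/WT sham scars and 323, 739 and 619 CPM with traction. Scars of Tem1 lacZ/lacZ mice had 191, 160.1 and 348 CPM in sham and 299, 250.25 and 540 CPM with traction. All groups overlapped, and replicate 1 was the lowest of both Tem1 WT/WT groups. For Vcan the log2 fold change with traction was 0.33 (SE 0.47, adjusted p = 0.660) and 0.64 (SE 0.47, adjusted p = 0.706) in the 2 genotypes. In sham scars Vcan differed between genotypes by -0.93 (SE 0.47, adjusted p = 0.455), the largest sham difference of the 9 genes. These are values of the whole gene, and its splice forms were not told apart.

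Over the 9 genes, the groups did not overlap with traction in Tem1 WT/WT mice for 2 genes, Cemip and Tnfaip6, both higher, where 17.7% of all genes tested were higher without overlap. Cemip in Tem1 lacZ/lacZ mice was higher without overlap (6.77% of all genes) and Has1, Hyal1 and Tnfaip6 were lower without overlap (6.16% of all genes). None of the 9 was called by edgeR in Tem1 lacZ/lacZ mice, where 0% of all genes were called, and 3 of the 9 had an unadjusted p under 0.05 beside 8.12% of all genes. DESeq2 and limma-voom also called none of the 9 there, DESeq2 with no p for Cemip, which its outlier rule removed in every comparison. The median log2 fold change of the 9 genes was 0.72 in Tem1 WT/WT and -0.22 in Tem1 lacZ/lacZ mice, against -0.01 in both for all genes tested.

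**Figure D3:**
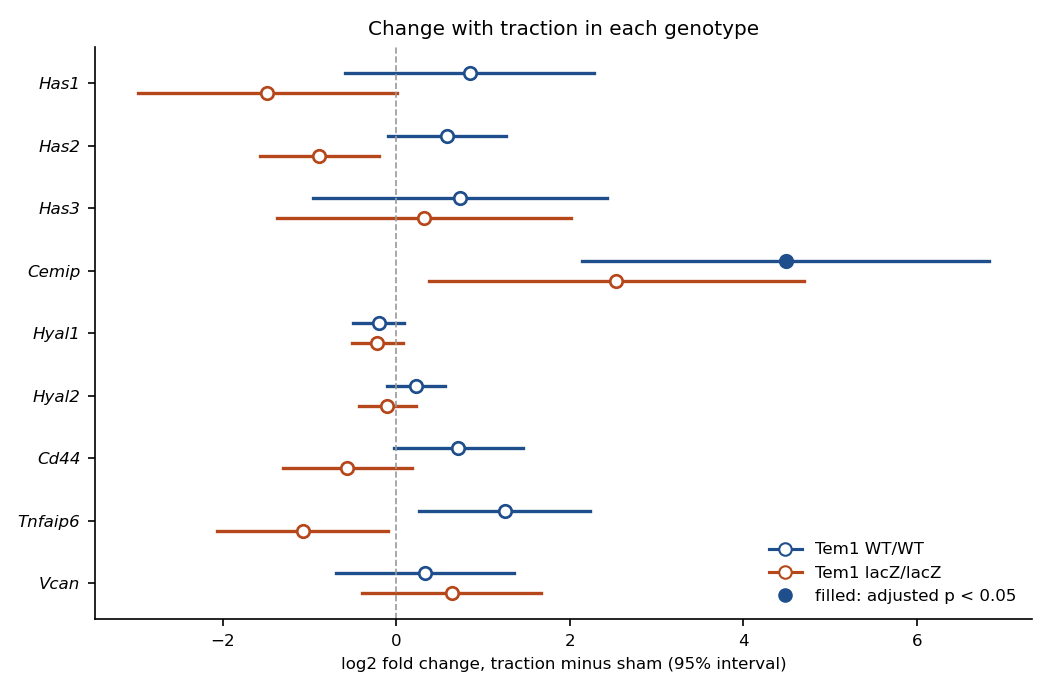
Log2 fold change from sham to traction scars for each of the 9 genes, with 95% intervals from edgeR's fit, in Tem1 WT/WT (blue) and Tem1 lacZ/lacZ mice (orange). The filled point is Cemip in Tem1 WT/WT mice, the only change with an adjusted p under 0.05 in that fit. For Has1, Has2, Cd44 and Tnfaip6, and by less for Hyal2 (0.23 and -0.10), the blue point lies above 0 and the orange point below it.

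The comparison of genotypes under traction asks how stretched scars differ when Tem1 is missing. Of the 9 genes, 4 were lower in every Tem1 lacZ/lacZ library than in every Tem1 WT/WT library, namely Has1, Has2, Cd44 and Tnfaip6, beside 13.7% of all genes tested. Their log2 differences, Tem1 lacZ/lacZ minus Tem1 WT/WT, were -2.78 for Has1 (SE 0.70, adjusted p = 0.0951), -1.42 for Has2 (SE 0.31, adjusted p = 0.0845), -1.02 for Cd44 (SE 0.34, adjusted p = 0.113) and -1.84 for Tnfaip6 (SE 0.46, adjusted p = 0.0928). None of the 9 was called, where edgeR called 0.106% of all genes, and these 4 had an unadjusted p under 0.05 beside 26.1% of all genes. DESeq2 called all 4, with adjusted p from 0.00150 for Has1 to 0.0382 for Cd44, in a fit that called 12.4% of all genes tested. Without replicate 1 of the Tem1 WT/WT traction group the difference of Cd44 was -0.45 (adjusted p = 0.299). Cemip differed by -1.94 (SE 0.95, adjusted p = 0.223), and by -0.085 without that library. Has3 differed by -0.39 (SE 0.77, adjusted p = 0.772), and by 1.11 without that library.

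In sham scars no gene of the 9 was called or lay without overlap between the genotypes, beside 0.0106% called and 26.8% without overlap among all genes. None had an unadjusted p under 0.05 there, beside 11.7% of all genes, and DESeq2 and limma-voom also called none. For Has2 the sham difference was 0.05 with a 95% interval of -0.62 to 0.73, and for Tnfaip6 it was 0.48 with an interval of -0.49 to 1.46.

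The interaction, the traction effect in Tem1 lacZ/lacZ minus that in Tem1 WT/WT mice, tests directly whether the effect of traction differed between the genotypes. It was -2.33 for Has1 (SE 0.94), -1.47 for Has2 (SE 0.44), -1.28 for Cd44 (SE 0.48) and -2.33 for Tnfaip6 (SE 0.63), each with an adjusted p of 0.548. These 4 of the 9 genes had an unadjusted p under 0.05, beside 8.91% of all genes tested, and edgeR called 0% of all genes. DESeq2 and limma-voom called none of the 9 either. The 2 genotypes' traction effects share no library, and the median interaction of the 9 genes was -1.28, against -0.0024 for all genes. Several of the 9 moved together over the same libraries, so this median does not count as 9 separate results.

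Across the 12 libraries Has1, Has2 and Tnfaip6 followed one another, with a Pearson correlation of log2 CPM of 0.94 for Has1 and Has2, 0.92 for Has2 and Tnfaip6 and 0.83 for Has1 and Tnfaip6. Cemip followed none of them (-0.06 with Has1, 0.10 with Has2 and 0.28 with Tnfaip6). Of 13637 genes compared, those most like Cemip were Angpt2 (0.97), Zfp384 (0.96) and Ptx3 (0.95), those most like Has2 were Rspry1, Pafah1b2 and Cyfip1 (0.88 to 0.89), and those most like Tnfaip6 were Tfpi2, Myadm and Rspry1 (0.89 to 0.93). The closest to Has1 were Errfi1, Lgi3 and Rnf2 (0.85 to 0.88), and the closest to Has3 were Gls2, Tmprss11g and Gjb6 (0.87 to 0.92). Hyal1 was most like Cyp4f13, Dnase1l3 and Calcb (0.93 to 0.94), Hyal2 most like Eya3, Tmem39b and Rnf185 (0.86), Cd44 most like Mtmr6, Tiparp and Crem (0.91 to 0.95), and Vcan most like Nxpe4, Raph1 and Myef2 (0.87 to 0.88). These correlations describe 12 libraries that share their group structure and depth, and were not tested.

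The rest of the hyaluronan pathway was followed as a list of 46 genes, of which 39 passed the filter on low counts. With traction in Tem1 WT/WT mice 11 rose and 2 fell, that is 13 of 39, where 9.15% of all genes were called (5.61% higher and 3.54% lower), and the median log2 fold change of the list was 0.37. Of the versican-cleaving proteases, Adamts4, Adamts9 and Adamts15 rose and Adamts20 fell. Adamts4 had 4.38, 12.2 and 18.3 CPM in sham and 90.0, 55.6 and 81.5 CPM with traction (log2 fold change 2.70, SE 0.47, adjusted p = 0.0252). Every traction library lay well above every sham library. Ptx3, a pentraxin that helps to cross-link hyaluronan carrying heavy chains, had 2.78, 8.02 and 14.7 CPM in sham and 165, 77.5 and 66.3 CPM with traction (log2 fold change 3.59, SE 0.76, adjusted p = 0.0311). Hapln4, a link protein that ties proteoglycans to hyaluronan, had 1.45, 1.10 and 1.64 CPM in sham and 7.78, 7.64 and 12.2 CPM with traction (log2 fold change 2.72, SE 0.33, adjusted p = 0.0170).

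Tmem2, the older symbol of Cemip2 and a membrane relative of Cemip, rose from 43.9 ± 5.74 to 111 ± 30.5 CPM (SD, n = 3; log2 fold change 1.34, SE 0.25, adjusted p = 0.0274). Gfpt1, whose enzyme opens the hexosamine pathway that supplies one of the 2 sugars of hyaluronan, rose from 89.1 ± 10.3 to 168 ± 19.4 CPM (log2 fold change 0.92, SE 0.21, adjusted p = 0.0329), and the other 6 precursor enzymes did not pass the test. The scavenger receptor gene Stab1, the innate receptor gene Tlr2, the proteoglycan gene Bcan and Ambp, which encodes bikunin, also rose. Ambp went from 0 to 6 counts per library in sham to 12 to 74 with traction, highest in replicate 1. Over 20 alternative fits the call was kept in 4 for Ambp, 6 for Stab1, 7 for Tlr2 and 9 for Bcan. Tlr2 is expressed by neutrophils and macrophages, and the part of their markers was not tested. Its log2 fold change was 1.99 (adjusted p = 0.0398), and when replicate 1 of the traction group was left out it was 0.87 (adjusted p = 0.0546). The Tlr2 call was also lost when any sham library of either genotype was left out (adjusted p from 0.0540 to 0.136). It was lost too without replicate 2 or 3 of the Tem1 lacZ/lacZ traction group (adjusted p = 0.0543 and 0.0548). Hyal4, which despite its name chiefly cuts chondroitin, fell from 2.63 ± 0.252 to 0.780 ± 0.350 CPM (log2 fold change -1.75, SE 0.38, adjusted p = 0.0314).

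The number of list genes called was 0 without replicate 1 or replicate 2 of the Tem1 WT/WT sham group and 3 without replicate 1 of the traction group. Over all genes those fits called 0%, 0% and 1.86%, against 9.15% with all 12 libraries. In Tem1 lacZ/lacZ mice edgeR called none of the 39 and 10 had an unadjusted p under 0.05, beside 8.12% of all genes, while DESeq2 called Ptx3 and limma-voom called Stab1. Ptx3 there had 10.2, 4.46 and 6.72 CPM in sham and 19.0, 106 and 31.4 CPM with traction (log2 fold change 2.87, adjusted p = 0.598). As for Cemip, replicate 2 was by far the highest of the Tem1 lacZ/lacZ traction libraries. Between the genotypes under traction 1 of the 39 was called, Hapln4, which was lower in Tem1 lacZ/lacZ scars (1.18, 2.46 and 2.02 CPM, log2 difference -2.28, SE 0.32, adjusted p = 0.0299). This call was lost when any of 10 of the 12 libraries was left out, with adjusted p from 0.0526 to 0.140, and held without replicate 1 or 2 of the Tem1 WT/WT traction group. The 10 fits that lost it called 0.0155% to 0.129% of all genes. Averaged over the genotypes 9 list genes rose, beside 6.5% of all genes, and 2 fell, beside 3.23%, with Gusb, a lysosomal enzyme of the last steps of breakdown, among those that rose (log2 fold change 0.67, SE 0.18, adjusted p = 0.0451) and Ugp2, which makes the precursor UDP-glucose, among those that fell (-0.49, SE 0.13, adjusted p = 0.0438). No list gene was called between genotypes in sham scars or in the interaction, where 2 and 8 of the 39 had an unadjusted p under 0.05, beside 11.7% and 8.91% of all genes, and DESeq2 and limma-voom called none.

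**Figure D4:**
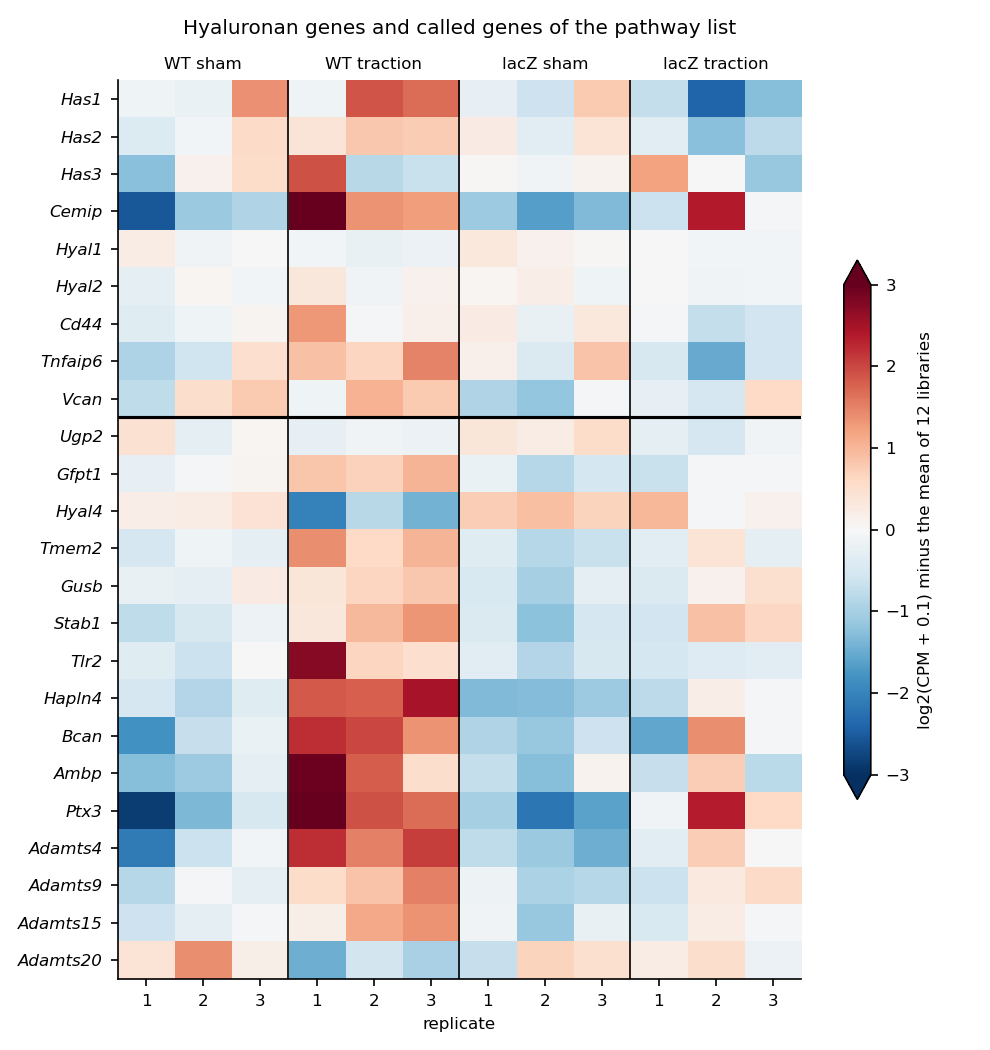
Log2(CPM + 0.1) of the 9 genes (above the line) and of the genes of the pathway list called in any comparison (below it) in each library, minus the gene's mean over 12 libraries, with colours capped at 3 in both directions. Cemip, Ptx3, Adamts4, Hapln4 and Bcan share high values in the 3 WT traction libraries. In the lacZ traction group they are all highest in replicate 2, whereas Has1, Has2 and Tnfaip6 are lowest there.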

How the data were processed

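RNA was extracted from the scars of 12 mice, and per the labels libraries were made with a stranded mRNA kit. The authors trimmed reads with fastp 0.20.0, aligned them to GRCm38 with HISAT2 2.1.0 and assigned them to genes with featureCounts 2.0.0, and they deposited whole-number read counts per gene and library, without normalization. The annotation, strand setting and treatment of reads with several or overlapping targets are not given in the sources used here. The deposited counts were analyzed in R 4.3.3 with edgeR 4.0.16: filterByExpr by group, TMM normalization, a robust quasi-likelihood fit of 4 groups (8 residual degrees of freedom) and two-sided tests. p-values were adjusted by Benjamini-Hochberg over all 18853 genes tested, and a gene was called at an adjusted p under 0.05. Standard errors and intervals come from this fit. They give the uncertainty of a log2 fold change, from variation between mice estimated over the 4 groups and moderated across genes.

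The fit was first tested on simulated counts. Alternatives were DESeq2 1.42.0, limma-voom with sample weights (limma 3.58.1), and other filters and normalizations. A replicate block, fits of 6 libraries and the leaving out of each library were alternatives too. Wherever limma-voom is named, each library had its own weight. DESeq2 without its outlier rule, the coding lengths and the alternatives for the pathway list were added after the data were seen. Levels per kb used exon lengths from GENCODE vM21, and gene coordinates and promoters came from RefSeq (GRCm38.p6), with promoters for 7 of the 9 genes. The 9 genes, the pathway and marker lists and the tests were chosen with earlier results of these data known. The genes named were the 9 genes, Cd248, pathway genes called in any comparison and, for each of the 9, the 3 genes of highest correlation among those with a mean log2 CPM (prior count 2) of at least 1. Chtf8, Has2os, Hyal3 and Naa80 were named for their overlap. Python 3.11.15 and matplotlib 3.10.9 made the figures.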

Additional observations from a re-analysis of the deposited data

Results flagged for a closer look

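For 3 of the 9 genes every Tem1 WT/WT traction library lay above the mean of its sham group and every Tem1 lacZ/lacZ traction library lay below the mean of its own. In edgeR's fit no traction effect of these genes was called in either genotype. The genes were picked by that rule from the same libraries, so the unadjusted p-values below are no separate support. How many of all genes meet the rule was not counted, and 8.91% of all genes had an unadjusted interaction p under 0.05. The difference between the effects, Tem1 lacZ/lacZ minus Tem1 WT/WT, was -1.47 on the log2 scale for Has2 (unadjusted p = 0.00629 in edgeR's fit), -1.28 for Cd44 (unadjusted p = 0.0213) and -2.33 for Tnfaip6 (unadjusted p = 0.00368). None passed after adjustment over all genes (adjusted p = 0.548 for each), so the differences are reported as such. With each library left out in turn they ran from -1.79 to -1.27 for Has2, from -1.53 to -0.69 for Cd44 and from -2.89 to -1.89 for Tnfaip6. The value of Cd44 nearest to 0 came without replicate 1 of the Tem1 WT/WT traction group, the library with the high neutrophil markers.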

How the results depend on the processing

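Of 1056 alternative values of the log2 fold changes of the 9 genes, 977 kept their direction and their side of the threshold, 15 fell short of it, 15 passed it and 49 changed sign. Of 489 alternative values of called pathway genes, 290 stayed called, 199 lost the call and 0 changed sign. With traction in Tem1 WT/WT mice 1 of the 9 was called, and 0 with all genes of at least 1 count, with limma-voom or with only the 6 libraries compared. DESeq2 called 1 (Tnfaip6) and, without its outlier rule, 2 (Cemip and Tnfaip6). Between genotypes under traction the count was 0, and 4 with DESeq2 with or without that rule (Has1, Has2, Cd44 and Tnfaip6). The cause of these differences was not tested. Leaving out each library in turn gave 0 to 1 called genes in Tem1 WT/WT mice, 0 to 3 between genotypes under traction (3 without replicate 2 of the Tem1 WT/WT traction group) and 0 to 1 averaged over the genotypes. In these fits 0% to 14.7%, 0.0155% to 7.32% and 0% to 17.6% of all genes were called. The fit with 3 of the 9 genes was the one that called 7.32%, against 0.106% with all 12 libraries.

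Of the pathway list, 13 genes were called in Tem1 WT/WT mice, 6 with all genes of at least 1 count and 0 with 6 libraries. In Tem1 lacZ/lacZ mice the count was 0, and 1 with DESeq2 in both forms and 1 with limma-voom. Between genotypes under traction it was 1, 8 with DESeq2 with or without that rule, and 0 with 6 libraries. Without single libraries these counts ran from 0 to 12, from 0 to 0 and from 0 to 6, and the average over genotypes (11) from 0 to 15. In Tem1 WT/WT mice 2 of the list were called without replicate 3 of the Tem1 lacZ/lacZ sham group, in a fit that called 0.873% of all genes. There were 5 without replicate 3 of the Tem1 WT/WT sham or traction group, where 4.22% and 3.62% of all genes were called. Averaged over the genotypes the count was 0 without replicate 2 of the Tem1 lacZ/lacZ sham group (0% of all genes) and 1 without replicate 2 of the Tem1 lacZ/lacZ traction group (0.0878%).

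Over all genes edgeR called 1725 with traction in Tem1 WT/WT mice, against 1011 with all genes of at least 1 count, 4047 with DESeq2, 4144 with DESeq2 without its rule, 735 with limma-voom and 0 with 6 libraries. In Tem1 lacZ/lacZ mice 0 became 28 with DESeq2 and 377 with limma-voom, between genotypes under traction 20 became 2334 and 16, and in sham 2 became 43 and 1. In the interaction 0 became 69 with DESeq2, and the average over genotypes, 1835, became 3850 with DESeq2 and, by a separate fit, with limma-voom, and 1198 with all genes of at least 1 count.

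Replicate numbers were not used as pairs in the main fit. Over 2000 genes the deviations of same-numbered libraries from their group means correlated by -0.34 to 0.30, with a median of 0.08, and 10 of 18 values were below 0.1. Differently numbered libraries were not compared in this way, so these values do not decide whether the numbers pair the samples. With a replicate block the count in Tem1 WT/WT mice stayed 1 but was Tnfaip6 (1.31, adjusted p = 0.0297) in place of Cemip (4.27, adjusted p = 0.0601), and 9 list genes were called.

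Signs changed chiefly for values near 0. With all genes of at least 1 count, Has3 (-0.0074) and Cemip (-0.016) in sham and Hyal1 in the interaction (0.027) did so. With upper quartile scaling, which moved the median of all genes to -0.12 in Tem1 WT/WT mice and to 0.14 between genotypes under traction, Hyal1 in the interaction was 0.062 and the averages of Hyal2 and Cd44 were -0.014 and -0.0023. With limma-voom Has3 was -0.37 in Tem1 WT/WT and -0.60 in Tem1 lacZ/lacZ mice, Cemip in sham -0.044, Hyal1 in the interaction 0.0029, and the averages of Has3, Cd44 and Tnfaip6 were -0.49, -0.22 and -0.095. With the replicate block Has3 and Cemip in sham were -0.14 and -0.050.

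Leaving out single libraries gave -0.0071 to 0.63 for Vcan and -0.76 to 1.15 for Has3 in Tem1 WT/WT mice, and -0.43 to 0.71 for Has3 and -0.16 to 0.0053 for Hyal2 in Tem1 lacZ/lacZ mice. In sham it gave -1.005 to 0.29 for Has1, -0.14 to 0.38 for Has2, -0.34 to 0.42 for Has3 and -0.34 to 0.31 for Cemip. Under traction Has3 ran from -1.16 to 1.11 between the genotypes. Averaged over genotypes the ranges were -0.53 to 0.048 for Has1, -0.27 to 0.013 for Has2, -0.21 to 0.73 for Has3, -0.19 to 0.20 for Cd44 and -0.039 to 0.37 for Tnfaip6. In the interaction they were -0.11 to 0.11 for Hyal1, -1.17 to 1.10 for Has3 and -0.10 to 0.75 for Vcan. Coding lengths from a protein table were not run, and coding lengths from GENCODE were used instead. With 3 mice a group and a coefficient of variation of 34.2% across all genes, the spread between mice limits all 9 genes, and Has1 in Tem1 lacZ/lacZ traction scars also rests on only 28 to 79 counts per library.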
